A study of Mus musculus with 15 samples.

Results

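Kainate and delta receptors are branches of the ionotropic glutamate receptor family, and 6 of their genes were described here: the kainate receptor subunit genes Grik1, Grik2, Grik3, Grik4 and Grik5 and the delta receptor gene Grid1. They were taken by gene symbol from a table of 30386 genes, and all 6 had enough reads to be among the 11718 genes tested. Expression was measured in mouse brain by QuantSeq, a method that reads only the 3′ end of each polyadenylated transcript, so a level is not divided by transcript length. The 15 libraries form 3 groups of 5. WT_PBS were wild types injected with phosphate-buffered saline, Het_PBS were Tbx1+/- mice, which carry 1 mutant copy of the T-box transcription factor gene Tbx1, given the same saline, and Het_B12 were Tbx1+/- mice given vitamin B12 in saline at 20 mg/kg. All were injected into the peritoneum, 2 times per week for 4 weeks, starting when the mice were 4 weeks old. No wild-type mice on the vitamin are analysed here, so an effect of the vitamin is seen in heterozygotes alone, and Het_B12 differs from WT_PBS in both genotype and treatment. The labels name the tissue both as whole brain and as a hemisphere, and say neither what the mutant allele lacks nor that each library is a separate mouse, so the spread behind each p-value is that of these libraries and may in part be technical. The labels also name 2 RNA isolation methods without saying which library had which, so a difference between groups in this step cannot be checked.

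Kainate receptors are glutamate-gated cation channels built from 4 subunits, and they act on both sides of the synapse, where they carry slow postsynaptic currents and tune transmitter release. Grik1, Grik2 and Grik3 encode GluK1, GluK2 and GluK3, the subunits that form working channels by themselves. Grik4 and Grik5 encode GluK4 and GluK5, which bind kainate with higher affinity and need a partner from the first set to form a channel. Grid1 encodes GluD1, a delta receptor that glutamate does not open in the usual way and that links synapses together through cerebellins and neurexins.

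The 6 genes lie on 6 chromosomes of GRCm38 and are protein coding. Grik5 (ENSMUSG00000003378) spans chromosome 7, 25009849 to 25072346, minus strand, and Grid1 (ENSMUSG00000041078) spans chromosome 14, 34820108 to 35583379, plus strand. Grik1 lies on chromosome 16 (87895900 to 88290265, minus strand), Grik2 on chromosome 10 (49094833 to 49788766, minus), Grik3 on chromosome 4 (125490700 to 125714173, plus) and Grik4 on chromosome 9 (42518135 to 42944493, minus). Grik5 is the shortest of these genes, at 62498 bases against 223474 to 763272 for the others. The annotation has 14 other features that overlap 4 of the genes, namely small RNAs, processed pseudogenes, sense intronic transcripts and transcripts still to be experimentally checked, and 0 of them have a row in the table.

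The promoters of the pair of high-affinity subunit genes are shown because these subunits share a role and only 1 of them passed the test in the comparison of treated with untreated heterozygotes. Each sequence runs from 250 bases before to 50 bases after the RefSeq start site (build GRCm38.p6), 5′ to 3′ on the gene's own strand. Capitals mark the GC box GGGCGG or its reverse complement CCGCCC, a motif known as a binding site of Sp1-type factors.
Grik5 (chr7:25072320-25072619, minus strand): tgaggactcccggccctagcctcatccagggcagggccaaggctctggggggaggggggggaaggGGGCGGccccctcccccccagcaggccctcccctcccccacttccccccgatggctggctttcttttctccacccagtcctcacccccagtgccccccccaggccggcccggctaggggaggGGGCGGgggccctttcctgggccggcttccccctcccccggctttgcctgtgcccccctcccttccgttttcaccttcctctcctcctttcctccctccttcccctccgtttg
Grik4 (chr9:42944322-42944621, minus strand): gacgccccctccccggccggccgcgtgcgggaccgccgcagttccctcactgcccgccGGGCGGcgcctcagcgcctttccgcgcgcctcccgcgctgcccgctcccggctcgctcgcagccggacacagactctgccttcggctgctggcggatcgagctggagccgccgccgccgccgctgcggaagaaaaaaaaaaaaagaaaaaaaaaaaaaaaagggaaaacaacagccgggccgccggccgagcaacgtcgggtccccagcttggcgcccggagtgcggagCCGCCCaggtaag
Both windows hold 2 GC boxes, a motif found on either strand in 35.7% of 32851 promoters of this length. The Grik5 window is 72.0% G and C with 10 CG dinucleotides, and the Grik4 window is 70.0% with 42. RefSeq windows were matched for 4 of the 6 members. The Grik3 window held 7 GC boxes and the Grik2 window 0. On either strand, none of the 4 held the TATA box TATAAA, which is found in 13.6% of promoters. None held the E-box CACGTG, found in 7.15%, and none held the cyclic AMP response element TGACGTCA, found in 1.79%.

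Total counts ran from 1683258 to 2746122 per library, at which 3 reads equal 1.02 to 1.79 CPM (a gene's reads scaled to a common library total, with TMM factors). Tbx1 itself had 7 reads over all 15 libraries and at most 3 in any of them, so it could not check the genotype labels. WT_PBS 3 lay near the Het_B12 libraries on the first principal component (17.8 against 19.1 to 32.8, with the other PBS libraries between -22.4 and -10.2), and Het_PBS 5 stood apart on the second (43.5, with the others between -24.4 and 22.5). Het_PBS 5 and Het_B12 1 carry the same number in their column names, which may be that of an animal. The chi-square between their counts, divided by its degrees of freedom, was 10.3. For Het_PBS 5 and the other Het_B12 libraries it was 8.96 to 10.7, so this value does not tell whether Het_PBS 5 and Het_B12 1 share a mouse. Where leaving these libraries out in pairs ended a call given below, that value is given beside it.

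In wild types given saline, 5 of the 6 genes were at similar, modest levels and Grik3 was lower. Mean levels were 25.3 ± 4.03 CPM for Grik2, 23.9 ± 3.83 CPM for Grik4, 23.0 ± 7.41 CPM for Grik5, 22.2 ± 2.18 CPM for Grid1, 20.8 ± 5.45 CPM for Grik1 and 9.56 ± 5.56 CPM for Grik3 (SD, n = 5). Neighbours in this order differed by less than their SDs from Grik2 down to Grik1. The 5 kainate subunits together came to 103 ± 10.4 CPM, next to 1410 ± 132 CPM for the 4 AMPA receptor subunit genes and 945 ± 114 CPM for the 7 NMDA receptor subunit genes, whose products carry the fast and the voltage-dependent glutamate currents. These are levels on the scale of transcript ends, and how well each gene's 3′ end is primed was not measured. For part of the genes the spread between wild-type libraries was near or below the size that counting gives. For Grik2 in WT_PBS the SD was 4.03 CPM where counting alone gives 3.48, and for Grid1 it was 2.18 where counting alone gives 3.26. Grik1, Grik3 and Grik5 spread more widely in WT_PBS, at 5.45 against 3.21, 5.56 against 2.20 and 7.41 against 3.29 CPM.

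**Figure D1:**
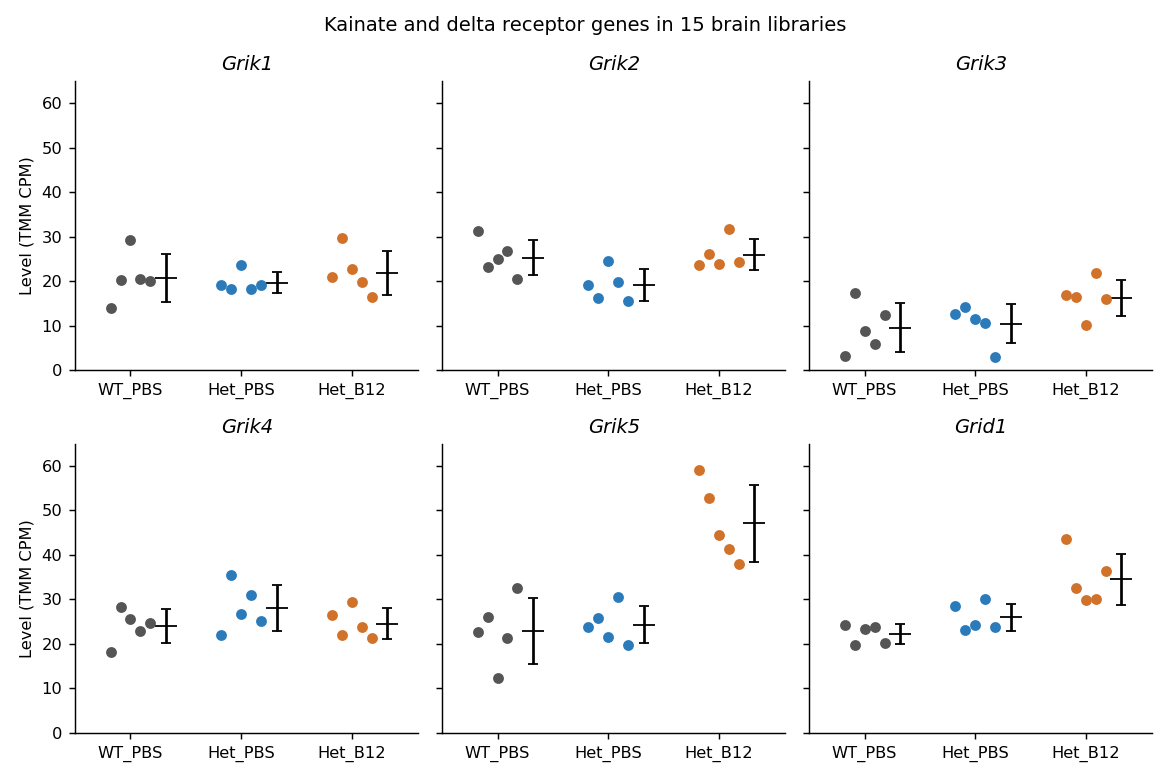
Levels of the 6 genes in each library (points, TMM-scaled CPM on a linear axis from 0) by group, with the group mean and SD (bar, n = 5). The 5 Het_B12 libraries lie above every PBS library for Grik5 (38.0 to 59.1 against 12.3 to 32.6 CPM), while the groups overlap for Grik1, Grik2, Grik3 and Grik4.

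The first comparison set Het_PBS against WT_PBS and asks how these receptors stand when 1 Tbx1 copy is mutant. None of the 6 members passed edgeR's test, and none of the 11718 genes did (percent called 0; 879 genes had an unadjusted p under 0.05, and DESeq2 and limma-voom also called 0). The member with the smallest p was Grik2, which encodes a channel-forming subunit common in principal neurons. In WT_PBS it stood at 31.2, 23.1, 25.1, 26.7 and 20.5 CPM and in Het_PBS at 19.2, 16.3, 24.6, 19.8 and 15.5 CPM. The heterozygotes were lower on average, with 4 of 5 below the lowest wild type, and Het_PBS 3 lay within the wild-type range. Its log2 fold change was -0.40 ± 0.20 SE (0.756-fold, 95% interval 0.571 to 1.00), with an unadjusted p of 0.0498 and an adjusted p of 0.66 by edgeR's quasi-likelihood test.

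The other members were closer to 0 or less precisely measured. Grik4 stood at 0.24 ± 0.19, Grid1 at 0.22 ± 0.18, Grik3 at 0.19 ± 0.35, Grik5 at 0.08 ± 0.21 and Grik1 at -0.06 ± 0.22 (log2 fold change ± SE, edgeR adjusted p from 0.83 to 0.975). The 95% intervals reached from 0.790-fold to 1.41-fold for Grik5 and from 0.695-fold to 1.87-fold for Grik3. Changes inside these bounds were not excluded. Without WT_PBS 3 and Het_PBS 5 together Grik5 was at -0.0029 and Grik1 at 0.0934, neither past the threshold. In each comparison of groups the members' non-overlap was read against all genes: 0 members had no overlap between Het_PBS and WT_PBS, where 0.836% of tested genes did.

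The effect of vitamin B12 in heterozygotes was read from Het_B12 against Het_PBS. Grik5 rose 1.92-fold and was the single member of the 6 that passed the test, where 7.26% of all tested genes were called in either direction and 3.47% were called higher. Grik5 encodes GluK5, the more widely expressed of the high-affinity subunits. It stood at 23.9, 25.9, 21.6, 30.6 and 19.7 CPM in Het_PBS and at 59.1, 52.7, 44.5, 41.3 and 38.0 CPM in Het_B12. Every Het_B12 library lay above every Het_PBS library, the lowest treated value of 38.0 CPM being above the highest untreated one of 30.6 CPM. Of all tested genes, 7.83% had no overlap between these groups, and 3.75% had none with Het_B12 the higher. In reads, these levels rest on 33 to 74 per library in Het_PBS and 104 to 147 in Het_B12. The means were 24.3 ± 4.19 and 47.1 ± 8.63 CPM (SD, n = 5), and the log2 fold change was 0.94 ± 0.19 SE (95% interval 1.46-fold to 2.52-fold, edgeR adjusted p = 0.00174).

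The call on Grik5 held in every alternative fit that was run. Over the 15 fits without 1 library the log2 fold change ranged from 0.85, without Het_B12 1, to 1.04, without Het_PBS 4, with adjusted p up to 0.00986. Without WT_PBS 3 and Het_PBS 5 together it was 0.87 (adjusted p = 0.00141). Without Het_PBS 5 and Het_B12 1, the libraries that share a number in their column names, it was 0.79 (adjusted p = 0.0253). Differences in this comparison followed transcript length and base composition. Over 5 equal sets of genes ordered by length, the median log2 fold change ran from -0.152 for the shortest transcripts to 0.118 for the longest. Over 5 sets ordered by GC content, it ran from -0.0794 for the lowest to 0.0664 for the highest. Grik5, with a longest transcript of 4061 bases and 61.7% GC, lies in the middle set by length and the highest by GC. With an offset that removes both trends from each library its log2 fold change was 0.79 (adjusted p = 0.0117).

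Grik4, which encodes the other high-affinity subunit, did not pass the test. It stood at 22.0 to 35.4 CPM in Het_PBS and at 21.3 to 29.5 CPM in Het_B12, and the groups overlapped. Its log2 fold change was -0.20 ± 0.19 (0.872-fold, 95% interval 0.669 to 1.14, edgeR adjusted p = 0.595), an interval that does not reach that of Grik5; the difference between the genes was not tested. As a description, Grik5 had 0.879 ± 0.150 reads per Grik4 read in Het_PBS, 0.979 ± 0.335 in WT_PBS and 1.94 ± 0.376 in Het_B12 (SD, n = 5), and the lowest Het_B12 ratio, 1.51, was above the highest of the 10 PBS libraries, 1.32.

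Among the subunits that form channels by themselves, none passed the test. Grik2 stood at 23.6, 26.2, 23.8, 31.8 and 24.4 CPM in Het_B12, where 2 libraries lay above the highest Het_PBS value of 24.6 CPM. Its log2 fold change was 0.44 ± 0.20 (edgeR adjusted p = 0.181), and against WT_PBS it was 0.03 ± 0.19 (adjusted p = 0.948), with means of 25.95 CPM in Het_B12 and 25.3 CPM in WT_PBS. The comparisons share libraries and are not separate evidence.

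Grik3, which encodes the subunit of lowest glutamate affinity, had the fewest reads, 5 to 55 per library. It stood at 12.6, 14.3, 11.6, 10.7 and 3.0 CPM in Het_PBS and at 16.8, 16.5, 10.2, 21.8 and 16.0 CPM in Het_B12. Het_PBS 5 was the low library, with 5 reads, and 4 of 5 Het_B12 libraries lay above every Het_PBS one. The log2 fold change was 0.60 ± 0.33 (edgeR adjusted p = 0.288), and 0.39 without Het_PBS 5. Grik1, the subunit gene of many interneurons, stood at 0.15 ± 0.22 (adjusted p = 0.734; 95% interval 0.823-fold to 1.51-fold), with 18.2 to 23.7 CPM in Het_PBS and 16.4 to 29.7 CPM in Het_B12.

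Grid1 lay between the others. It stood at 28.5, 23.1, 24.2, 30.1 and 23.9 CPM in Het_PBS and at 43.6, 32.6, 29.9, 30.2 and 36.3 CPM in Het_B12. Of the treated libraries 4 were above every Het_PBS library, and Het_B12 3, at 29.9 CPM, fell just under the highest. The log2 fold change of 0.40 ± 0.18 (1.32-fold, 95% interval 1.03 to 1.69) did not pass over all genes (edgeR adjusted p = 0.162). It was 0.28 without Het_PBS 5 and Het_B12 1 and 0.30 with the offset for length and GC.

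**Figure D2:**
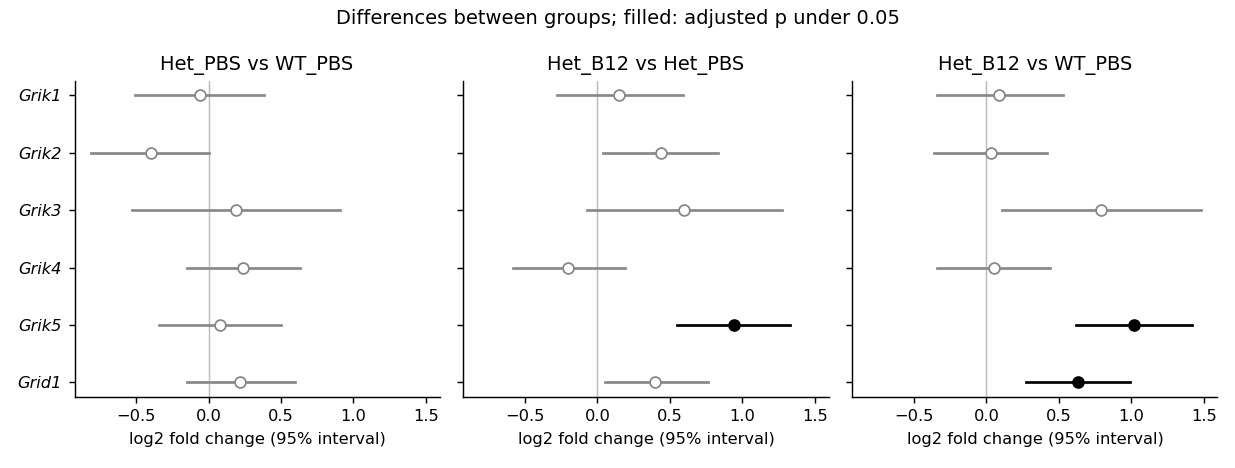
Log2 fold change of each gene (point) with its 95% interval (line) in the 3 comparisons, from 1 edgeR fit; filled points had an adjusted p under 0.05. Grik5 is filled in both comparisons with Het_B12 (0.94 and 1.02), Grid1 in the comparison with wild types (0.63), and no gene in the comparison of Het_PBS with WT_PBS.

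Treated heterozygotes were then compared with saline wild types, a contrast in which genotype and vitamin cannot be told apart. Grik5 and Grid1 were higher and the other 4 members did not pass, where 7.33% of all tested genes were called and 3.22% were called higher. Grik5 was at 22.6, 26.0, 12.3, 21.3 and 32.6 CPM in WT_PBS, all below the lowest Het_B12 library at 38.0 CPM. The fold was 2.03 (95% interval 1.54 to 2.67, log2 1.02 ± 0.20 SE, edgeR adjusted p = 0.000886), and the log2 fold change was 0.88 without WT_PBS 3. Grid1 was at 24.2, 19.7, 23.4, 23.8 and 20.1 CPM in WT_PBS, also below every Het_B12 library, with a fold of 1.55 (1.20 to 1.99, log2 0.63 ± 0.18, adjusted p = 0.0249). These 2 were the members with no overlap, where 5.38% of tested genes had none and 2.44% had none with Het_B12 the higher.

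The Grid1 call was the less firm. It failed in 4 of 15 fits that each left out 1 library, with adjusted p of 0.0936 without Het_B12 1, 0.0774 without WT_PBS 5, 0.0535 without WT_PBS 2 and 0.0514 without Het_B12 5, and the log2 fold change stayed between 0.53 and 0.68. It was also lost without Het_PBS 5 and Het_B12 1 together (0.53, adjusted p = 0.0869) and with the offset for length and GC (0.54, adjusted p = 0.0596). Grik3, at 3.3, 17.4, 8.8, 5.8 and 12.5 CPM in WT_PBS, had a larger but less precise difference than Grid1, 0.79 ± 0.34 (adjusted p = 0.158), and its groups overlapped. Grik1 (0.09 ± 0.22), Grik4 (0.05 ± 0.19) and Grik2 (0.03 ± 0.19) had adjusted p of 0.851 to 0.948.

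Ordered by level, Grik5 and Grid1 were highest in Het_B12, and for both the difference between the neighbouring WT_PBS and Het_PBS means did not pass the test. Grik3 had the same order with overlapping groups, Grik4 was highest in Het_PBS, and Grik2 lowest there. For Grik1 the 3 means lay between 19.7 and 21.9 CPM, within 1 SD of one another.

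The mix of kainate subunits differed accordingly. Summed over Grik1 to Grik5 the level was 103 ± 10.4 CPM in WT_PBS, 102 ± 12.1 in Het_PBS and 136 ± 12.9 in Het_B12, with every Het_B12 library (116 to 147 CPM) above every PBS library (82.5 to 115 CPM). This sum includes Grik5, and its non-overlap was not set against that of all genes. Summed over Grik1 to Grik3 alone, the groups overlapped. Those sums were 56.7 to 73.49 CPM in Het_B12, 48.45 to 63.11 CPM in WT_PBS and 37.67 to 59.97 CPM in Het_PBS. Grik5 supplied 22.3% ± 6.43 of the Grik1 to Grik5 reads in WT_PBS, 23.9% ± 2.79 in Het_PBS and 34.5% ± 3.88 in Het_B12. Its lowest Het_B12 share was 29.8%, in Het_B12 4, and its highest PBS share 29.6%, in WT_PBS 5. Grik4 supplied 23.3% ± 2.03, 27.6% ± 3.91 and 18.2% ± 2.81 in the same order, and Grik2 25.2% ± 6.55, 18.8% ± 2.87 and 19.2% ± 2.73 (SD, n = 5). These shares describe the members and carry no test. Shares are parts of a whole, so where the Grik5 share is larger the combined share of the others is smaller. The Grik4 level itself averaged 23.9 CPM in WT_PBS, 28.05 CPM in Het_PBS and 24.6 CPM in Het_B12.

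**Figure D3:**
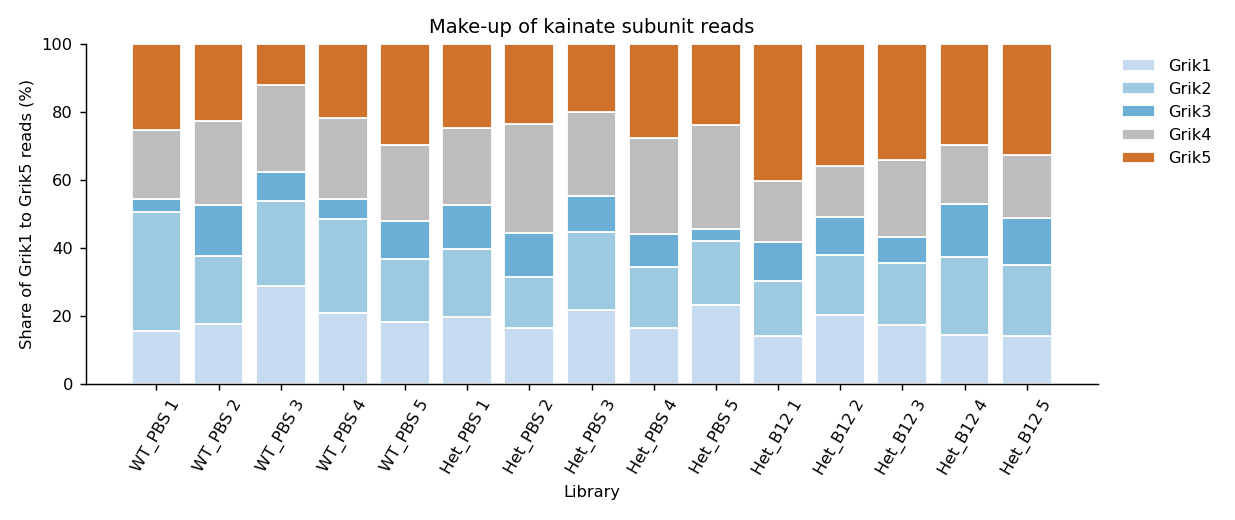
Share of each kainate subunit gene in the summed Grik1 to Grik5 reads, in percent, 1 bar per library (depth-scaled counts, each bar adding to 100%). The Grik5 share (orange, top) is 29.8% to 40.3% in Het_B12 and 12.1% to 29.6% in the PBS libraries.

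Proteins that assemble with these receptors were taken from 2 lists. Of 17 kainate auxiliary and binding proteins, all tested, none passed in any comparison, and their median log2 fold change in Het_B12 against Het_PBS was 0.02, beside 0.0119 over all genes. Neto1 and Neto2, auxiliary subunits that slow the channel's gating, were at -0.11 ± 0.17 and 0.07 ± 0.17 (edgeR adjusted p = 0.768 and 0.851). Ctnnb1, which encodes β-catenin, stood at -0.28 ± 0.11 (adjusted p = 0.14). By genotype the smallest were Klhl24, whose product binds GluK2 (0.45 ± 0.18, adjusted p = 0.589), and the scaffold gene Dlg4, which encodes PSD-95 (-0.28 ± 0.12, 0.608). Dlg4 (-0.35 ± 0.12, 0.0735) and the cadherin gene Cdh2 (-0.44 ± 0.16, 0.0885) had the smallest in Het_B12 against WT_PBS.

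Of 10 partners of delta receptors, 8 were tested, and 2 rose with the vitamin. Cbln3, a cerebellin of cerebellar granule cells, stood at 76.7 ± 9.91 CPM in Het_PBS and rose to 118 ± 19.7 CPM in Het_B12 (SD, n = 5), by 0.62 ± 0.15 SE on the log2 scale (edgeR adjusted p = 0.0075). Cbln1, which encodes the secreted cerebellin that bridges neurexins and delta receptors, rose from 78.5 ± 14.2 to 109 ± 9.95 CPM (0.48 ± 0.15, adjusted p = 0.0382). The Cbln1 call failed in 6 of 15 fits that each left out 1 library, with adjusted p up to 0.128 without Het_PBS 2. It also failed without Het_PBS 5 and Het_B12 1 together (0.49, adjusted p = 0.0851) and with the offset for length and GC (0.40, adjusted p = 0.0941), where Cbln3 passed in both (adjusted p = 0.0213 and 0.0189). The presynaptic partners Nrxn2 (0.11 ± 0.11) and Nrxn3 (0.19 ± 0.10) did not pass, and all 8 tested partners lay above 0 (median 0.21). None of the 8 passed in Het_PBS against WT_PBS, where Cbln3 stood at -0.64 ± 0.15 (adjusted p = 0.226) and Cbln1 at -0.18 ± 0.15 (0.841). Nor did any pass in Het_B12 against WT_PBS, where Cbln1 was at 0.29 ± 0.14 (0.23) and Cbln3 at -0.02 ± 0.15 (0.953). The Cbln3 level in WT_PBS was 120 ± 33.3 CPM (SD, n = 5).

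The remaining ionotropic receptors were nearer to 0 than Grik5 in this comparison. Of 4 AMPA receptor genes, Gria2 rose (0.37 ± 0.11, edgeR adjusted p = 0.0288; lost in 4 of 15 fits without 1 library, up to 0.0978 without Het_PBS 3) and 3 did not pass. Of 7 NMDA receptor genes 6 were tested, and Grin2b rose (0.35 ± 0.11, 0.0437; lost in 8 of 15 such fits, up to 0.135 without Het_B12 4). Grin2b also failed without Het_PBS 5 and Het_B12 1 together (0.37, adjusted p = 0.0908) and with the offset for length and GC (0.0753, adjusted p = 0.754), where Gria2 passed in both (adjusted p = 0.0497 and 0.0242). The median of the 5 kainate genes was 0.44, the value of Grik2, which did not pass. In Het_B12 against WT_PBS the kainate median was 0.09. For AMPA and NMDA receptor genes the medians were 0.19 and 0.25, and against WT_PBS they were 0.09 and 0.18. No gene of either list passed in the other comparisons, where the smallest p-values were those of Gria4 (-0.18 ± 0.13, adjusted p = 0.788) and Grin2d (0.46 ± 0.33, 0.794) by genotype, and Gria2 (0.24 ± 0.11, 0.195) and Grin2b (0.32 ± 0.11, 0.0737) in Het_B12 against WT_PBS. The RNA editing list held 3 genes of the adenosine deaminase family, some members of which recode Grik1 and Grik2 transcripts. Of these, Adar rose from 40.2 ± 6.15 to 61.2 ± 4.76 CPM with the vitamin (0.61 ± 0.15, edgeR adjusted p = 0.00869). With the offset it was at 0.45 (adjusted p = 0.0604). Adar was also higher in Het_B12 than in WT_PBS (0.65 ± 0.15, adjusted p = 0.00567). In Het_B12 against Het_PBS, Adarb1, the main editor of glutamate receptor transcripts, stood at 0.16 ± 0.14 (0.54) and Adarb2 at 0.76 ± 0.32 (0.144). None of the 3 passed by genotype, Adarb2 (-0.58 ± 0.33, 0.713) having the smallest p.

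**Figure D4:**
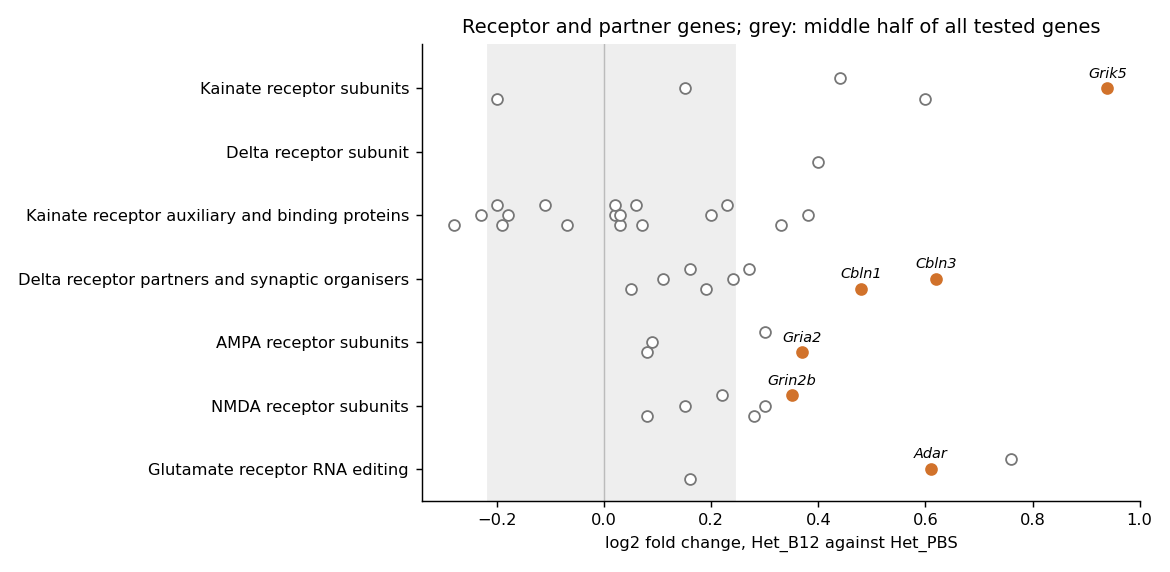
Log2 fold change of Het_B12 against Het_PBS for each tested gene (point), by list; filled points had an adjusted p under 0.05 and are named, and the grey band is the interquartile range of all tested genes (-0.218 to 0.244). Grik5 lies farthest right at 0.94, and the 17 kainate auxiliary and binding proteins lie between -0.28 and 0.38.

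Markers of several cell types moved in the same comparison, and in bulk tissue fewer cells of a type cannot be told apart from less RNA per cell. Of 10 pan-neuronal markers 1 was higher in Het_B12 than in Het_PBS, with a median log2 fold change of 0.06 and summed levels of 7283 to 7944 CPM against 7237 to 7949 CPM. Of 10 excitatory forebrain markers 0 were called (median -0.02), as for 8 tested hippocampal markers (median -0.11). Of 10 striatal neuron markers 2 were higher (median 0.33), with summed levels of 705 to 786 CPM against 593 to 703 CPM, and of 12 cerebellar neuron markers 3 were higher (median 0.05; 1413 to 1883 against 1531 to 1705 CPM). Cbln3, described above as a delta receptor partner, is among these 3 cerebellar markers. Of 10 interneuron markers 1 was higher and 1 lower (median 0.05).

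Markers of astrocytes, microglia and endothelial cells differed more than those of neurons. Of 14 astrocyte markers 9 were lower (median -0.48; summed 8439 to 9536 against 11860 to 13940 CPM), and of 12 microglia markers 5 were lower (median -0.68; 385 to 481 against 601 to 825 CPM). Of 10 tested endothelial markers 6 were higher (median 0.95; 204 to 294 against 98.4 to 140 CPM). Of 10 oligodendrocyte markers 3 were lower (median -0.22), and of 7 oligodendrocyte precursor markers none passed (median 0.07). Reads at Gm42418, which overlaps a ribosomal RNA repeat, made up 5.29% ± 1.25 of the total in Het_B12, 8.52% ± 1.73 in Het_PBS and 11.9% ± 1.78 in WT_PBS. The part of these shifts in the Grik5 difference was not tested. WT_PBS 3 had the lowest Grik5 level of all 15 libraries (12.3 CPM, from 21 reads), and its marker sums, those of 1 library, carry no test. Its astrocyte sum of 9523 CPM and microglia sum of 470 CPM were both within the Het_B12 range. Its endothelial sum of 112 CPM lay within the PBS range and below every Het_B12 library, and its oligodendrocyte sum of 4068 CPM was below the Het_B12 range of 4764 to 6646 CPM.

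The genes whose levels across the 15 libraries were most like each member's were found among 10393 protein-coding genes of at least 5 CPM, by Pearson's r of log2 CPM. Grik5 was most like Cacng2, which encodes stargazin, an AMPA receptor auxiliary subunit (r = 0.913), followed by Fam222b (0.909) and the protein phosphatase gene Ppp5c (0.888). The Cacng2 level was 159 ± 24.3 CPM in WT_PBS, 181 ± 17.7 CPM in Het_PBS and 299 ± 30.5 CPM in Het_B12 (SD, n = 5). Grid1 was most like Kmt2b, a histone methyltransferase gene (0.903), the synaptic scaffold gene Tanc2 (0.883) and Pkd2 (0.863). Grik3 was most like Atoh7 and Stxbp2 (0.868 each) and Brd3 (0.851), Grik1 like Esyt1 (0.822), Fbxo46 (0.804) and Tsc1 (0.795), Grik2 like Mrs2 (0.819), Ahctf1 (0.802) and Jcad (0.799), and Grik4 like Plekhg3 (0.771), Btg2 (0.765) and Ypel3 (0.753). Among the members themselves the highest r was 0.70, between Grik5 and Grid1, followed by 0.57 between Grik3 and Grik5, and the lowest was -0.55, between Grik2 and Grik4. The 15 points share the group structure, library depth and scaling, the highest of so many values is high by selection, and these values are descriptions.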

How the data were processed

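Raw counts, the unit deposited by the authors, came as a single table of genes by libraries, with 15 columns matched to samples by the name each label gives; groups and replicate numbers came from sample titles. The submitters' processing notes name STAR, HTSeq and edgeR, and the build mm10. Not given in the sources used here are their versions, annotation, strand setting and filters. Per the labels' protocols, libraries were made with a QuantSeq 3′ kit. Coordinates, transcript lengths and GC content came from GENCODE M21 of GRCm38, and promoter windows from RefSeq.

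Counts were analysed in R 4.3.3. Genes kept by filterByExpr (11718 of 30386) were scaled by TMM and fitted with edgeR 4.0.16 (quasi-likelihood, all 15 libraries, 1 mean per group, 12 residual degrees of freedom, biological coefficient of variation 0.181). The threshold for a call was 0.05 on p-values adjusted by Benjamini and Hochberg's method over all genes tested. Intervals are 95% intervals of the fit, and the floor of 3 reads covers counting error only. The fit was tested on simulated data. The members and lists were chosen with earlier results of these data known. All 6 members were named throughout; of the listed pathways, called genes were named, or up to 2 with the smallest p, and Neto1, Neto2, Nrxn2, Nrxn3, Adarb1 and, where another gene of their list was called, some others were added for their role. A few results are not reported here. Alternatives were DESeq2 size factors, no filter, a minimum mean count of 50, the DESeq2 1.42.0 Wald test, limma-voom (limma 3.58.1), fits to the libraries of each pair of groups, replicate numbers as a block, and leaving out libraries; leaving out Het_PBS 5 with Het_B12 1, and an offset for transcript length and GC, were added after seeing the data. Same-numbered libraries were checked for pairing: 1 of 15 correlations of their deviations was over 0.1 (-0.0933 to 0.106), so the numbers were not taken to pair them. No 2 libraries of a group agreed within sampling noise, the lowest chi-square being 3.03 per degree of freedom.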

Additional observations from a re-analysis of the deposited data

Results flagged for a closer look

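Of 18 sets of 5 libraries, 1 per member and group, 1 held a library far from the others: Grik1 in Het_PBS 3 was at 23.7 CPM, where the other Het_PBS libraries lay between 18.2 and 19.2 CPM. Chance alone flags about 1 in 20 such sets.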

How the results depend on the processing

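Grik3 had the fewest reads, 5 to 55 per library. Its SD was above that of counting alone in each group (4.14 to 5.56 against 2.14 to 2.50 CPM). In each of the 2 comparisons with Het_B12, Grik5 kept its direction and its call over 15 fits without 1 library and 10 other alternatives. Members called in Het_B12 against WT_PBS numbered 1 to 2 over fits without 1 library (2 with all libraries), 1 without Het_PBS 5 and Het_B12 1 together and 1 with the offset for length and GC, Grid1 being the one lost. With the replicate number as a block the members called were 1, 2 and 0 for Het_B12 against Het_PBS, Het_B12 against WT_PBS and Het_PBS against WT_PBS, as in the fit without it; no call on a member changed, all genes called were 830, 800 and 0, and 1 of 15 libraries correlated best with its own number. Over all genes, Het_PBS against WT_PBS gave 0 calls by edgeR, DESeq2 and limma-voom (879 genes at an unadjusted p under 0.05), 40 with no filter on low counts, 1 without WT_PBS 3 and Het_PBS 5 together, 2 without Het_PBS 5 and Het_B12 1, and 0 to 14 over fits without 1 library, 14 being without WT_PBS 2. Het_B12 against Het_PBS gave 851, 437 without Het_PBS 5 and Het_B12 1 together, and 549 (without Het_B12 1) to 1050 without 1 library. Het_B12 against WT_PBS gave 859, 1390 without WT_PBS 3 and Het_PBS 5 together, and 449 (without WT_PBS 5) to 1268 without 1 library. Signs turned for uncalled values near 0. In Het_PBS against WT_PBS, over fits without 1 library, Grik1 ranged from -0.18 to 0.0923, Grik3 from -0.0421 to 0.50 and Grik5 from -0.0536 to 0.24; without WT_PBS 3 and Het_PBS 5 together Grik1 was at 0.0934 and Grik5 at -0.0029. In Het_B12 against WT_PBS, Grik1 ranged from -0.0442 to 0.24, Grik2 from -0.0517 to 0.12 and Grik4 from -0.0447 to 0.11, and with the offset Grik4 was at -0.0781; the cause was not tested. With a mean count of at least 50, Grik1 and Grik3 were not tested.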
